A study of Mus musculus with 36 samples.

Results

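Rcan1, the NR4A genes Nr4a1, Nr4a2 and Nr4a3, and the EGR genes Egr1, Egr2 and Egr3 were followed in mouse eosinophils. They were chosen by symbol, and all 7 named genes were present in the deposited table of 7 tissues, which holds 9844 genes, and in the table of a reporter sort, which holds 8001. No threshold on their values was used. The genes were named with knowledge of earlier results in these libraries, on the small intestine against the other tissues and on the reporter sort. For the 7 genes, both of those comparisons are therefore given as descriptions, with no test. Calls of other genes and lists in these comparisons are printed below. The lists too were chosen with earlier results of these data known, so those calls serve as description only.

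Total eosinophils, granulocytes of blood and mucosal tissues, had been sorted by flow cytometry from wild-type mice. They came from small intestine (4 libraries), colon (3), skin (3), lung (3), spleen (4), bone marrow (3) and blood (4). A second set came from the small intestine of mice of the NMUR1-TdT reporter genotype, whose fluorescent protein marks cells that express Nmur1. That gene encodes a receptor for neuromedin U, a neuropeptide. The set held 5 libraries of Nmur1-positive and 6 of Nmur1-negative eosinophils. All mice were of the C57BL/6 strain, aged 8 to 12 weeks, at steady state, with both sexes pooled. Smart-seq2, which copies whole transcripts from few cells, was used for every library, and a single-cell sample of the series was not analysed here. The labels do not say that the replicates of a group were separate animals, and the p-values below rest on the scatter among libraries alone, some of which may be technical.

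A rise in cytosolic calcium activates the phosphatase calcineurin, which dephosphorylates NFAT transcription factors and lets them enter the nucleus. Rcan1 encodes a protein that binds and restrains calcineurin, and its internal promoter is a known NFAT target, so its transcript is widely used as a readout of that pathway. The NR4A genes encode orphan nuclear receptors that are transcribed within minutes of a stimulus, through CREB and, in lymphocytes, through NFAT. The EGR genes encode zinc finger factors of the same early class. Egr1 is driven mainly by serum response factor and its ERK-activated partners, while Egr2 and Egr3 are also known NFAT targets in T cells. Eosinophils meet such stimuli through chemokine, cytokine and neuropeptide receptors, and also during isolation from tissue, in which early response genes can be induced.

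The sequences before the transcription starts show where these genes differ in the letters that calcium-dependent factors can read. Each window below is the stretch before a RefSeq transcript start on GRCm38.p6, written 5′ to 3′ on the strand of the gene. Capitals mark the NFAT core, GGAAA or its reverse complement TTTCC, and the core of the cAMP response element, TGACG or CGTCA. The full element TGACGTCA holds both of these, overlapping, and is capitalised whole.
Rcan1, downstream start, chr16:92400079-92400328, minus strand: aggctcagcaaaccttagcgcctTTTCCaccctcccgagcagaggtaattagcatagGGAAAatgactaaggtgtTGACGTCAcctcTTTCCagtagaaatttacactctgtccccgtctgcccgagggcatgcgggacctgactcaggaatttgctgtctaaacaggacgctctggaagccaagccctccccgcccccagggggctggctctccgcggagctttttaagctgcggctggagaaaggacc
Rcan1, upstream start, chr16:92466170-92466419, minus strand: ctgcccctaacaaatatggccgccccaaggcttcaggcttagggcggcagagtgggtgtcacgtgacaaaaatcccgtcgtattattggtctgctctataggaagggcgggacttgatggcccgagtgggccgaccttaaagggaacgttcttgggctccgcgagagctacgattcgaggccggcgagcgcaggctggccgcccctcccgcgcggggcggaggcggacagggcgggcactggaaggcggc
Nr4a1, chr15:101266596-101266845, plus strand: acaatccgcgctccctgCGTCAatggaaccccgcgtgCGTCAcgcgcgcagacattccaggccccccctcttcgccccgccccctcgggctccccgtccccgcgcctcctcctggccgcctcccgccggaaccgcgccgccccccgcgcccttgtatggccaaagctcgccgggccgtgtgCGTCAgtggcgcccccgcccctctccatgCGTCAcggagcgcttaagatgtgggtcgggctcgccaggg
Nr4a2, chr2:57124004-57124253, minus strand: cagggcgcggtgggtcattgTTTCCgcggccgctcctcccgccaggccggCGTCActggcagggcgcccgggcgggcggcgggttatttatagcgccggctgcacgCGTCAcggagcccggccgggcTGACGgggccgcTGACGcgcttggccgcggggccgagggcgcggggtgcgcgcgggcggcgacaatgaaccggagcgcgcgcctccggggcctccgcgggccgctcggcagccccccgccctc
Nr4a3, chr4:48045055-48045152, plus strand: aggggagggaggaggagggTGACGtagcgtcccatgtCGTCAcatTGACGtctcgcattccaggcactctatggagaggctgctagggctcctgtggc
Egr2, chr10:67537619-67537868, plus strand: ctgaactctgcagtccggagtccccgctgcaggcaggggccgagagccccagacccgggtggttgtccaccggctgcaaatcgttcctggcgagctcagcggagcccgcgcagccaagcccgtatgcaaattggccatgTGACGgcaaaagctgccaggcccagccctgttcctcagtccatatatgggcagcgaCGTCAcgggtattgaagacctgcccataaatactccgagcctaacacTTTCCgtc

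The Rcan1 window at the downstream start held 3 NFAT cores, 227, 193 and 163 bases before the start, and a full cAMP response element 175 bases before it. The window at the upstream Rcan1 start held none of these letters. The Nr4a1 window held 4 cores of the cAMP response element (CRE cores), 233, 213, 69 and 40 bases before the start, and no NFAT core. The Nr4a2 window held 4 CRE cores and 1 NFAT core. For Nr4a3 the first 98 bases of the window are shown, which end before the annotated exon, and they held 3 CRE cores. The Egr2 window shown held 2 CRE cores and 1 NFAT core. It is 1 of 5 for Egr2 in the table. The windows at 2 nearby starts overlap it and held the same counts, the one before the start at 67537566 held 3 NFAT cores and no CRE core, and the one before the start at 67535499 held neither.

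Of 32851 RefSeq promoter windows of the same 250 bases, 55.6% held an NFAT core on either strand and 17.8% held a CRE core. A full cAMP response element stood in 1.55% of them, and together with an NFAT core, as at the downstream Rcan1 start, in 0.883%. CRE cores at 3 or more positions, as in the NR4A windows, were found in 0.688%. A match of letters is a description and not a bound site.

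On GRCm38 (mm10), GENCODE M21 places Rcan1 on chromosome 16 at 92391953 to 92470867, on the minus strand. The downstream Rcan1 window lies inside the gene, in an intron of longer transcripts, as do the Nr4a1 and Egr2 windows. Nr4a1 lies on chromosome 15 at 101254269 to 101274795, Nr4a3 on chromosome 4 at 48045153 to 48086447, Egr2 on chromosome 10 at 67535475 to 67542188 and Egr3 on chromosome 14 at 70077203 to 70082614, all on the plus strand. Nr4a2 lies on chromosome 2 at 57106830 to 57124003, on the minus strand. The Nr4a2 and Nr4a3 windows lie immediately before their genes. All are protein coding. The deposited values are 1 level per gene, so transcripts from the 2 Rcan1 starts cannot be told apart in them.

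Values are in TPM, a transcript level scaled for gene length and library size, and the depth of the libraries is unknown. Between 7770 and 9325 genes reached 1 TPM per library in the tissue set, and between 7740 and 7928 in the sorted set. The eosinophil markers Siglecf, a lectin receptor, and Ccr3, the eotaxin receptor, were present in every group, Siglecf at 105 to 347 TPM over all tissue libraries. Epx, which encodes eosinophil peroxidase, averaged 1520 TPM in bone marrow and was at 0 in all 3 colon libraries. Prg2, Ear1 and Ear2, the most abundant of the 12 eosinophil markers listed, also differed widely between tissues. Prg2 averaged 72326.5 TPM in bone marrow, 7866 TPM in spleen, 78.0 TPM in blood and 55.1 TPM in small intestine. Ear1 averaged 26488 TPM in bone marrow and 1.67 TPM in colon, and Ear2 averaged 17108 TPM in bone marrow and 0.727 TPM in colon. Nmur1 read 25.9 to 53.1 TPM in Nmur1-positive libraries and 0 to 15.6 TPM in Nmur1-negative libraries, with no overlap. Markers of other cells are given beside the results they move with. In bulk libraries, fewer cells of a type and less RNA per cell cannot be told apart.

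Rcan1 was highest in the small intestine. It read 37.98, 74.0, 69.3 and 93.2 TPM in small intestine and 18.7, 14.6 and 15.8 TPM in skin. It read 5.08, 8.65 and 4.81 TPM in colon and 1.03, 3.34 and 2.05 TPM in lung. Small intestine lay above every other library, skin lay above the 5 remaining tissues, and lung was lowest on average.

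In spleen, Rcan1 read 6.17, 2.49, 3.84 and 9.41 TPM. In bone marrow it read 5.04, 4.78 and 2.67 TPM, and in blood 2.74, 6.99, 5.08 and 1.68 TPM. In the order of means, colon, spleen, bone marrow, blood and lung each overlapped with the next, while the colon libraries all lay above the lung libraries. The mean in small intestine was 11.1-fold that in colon, the other gut tissue, 4.19-fold that in skin and 32.1-fold that in lung.

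Nr4a1 followed another order. It read 646, 282, 799 and 461 TPM in small intestine, 562, 737 and 1029 TPM in colon and 880, 801 and 774 TPM in lung. These 3 tissues overlapped with each other. Skin read 21.5, 50.5 and 44.4 TPM, below all of their libraries. Nr4a1 was lower still in spleen, at 3.84, 5.98, 5.85 and 8.46 TPM, and in blood, at 15.8, 13.5, 7.34 and 3.25 TPM. Bone marrow read 0.85, 2.56 and 1.16 TPM, below every spleen and blood library.

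Nr4a3 and Nr4a2 had the same 3 tissues at the top. Nr4a3 read 166 to 182 TPM in small intestine, 145 to 234 TPM in colon and 62.2 to 117 TPM in lung. Skin read 9.93 to 20.5 TPM, and spleen, bone marrow and blood read at most 1.12 TPM. Lung lay below both gut tissues and above skin without overlap. Nr4a2 was the least abundant of the family in the gut, at 20.4 to 73.02 TPM in small intestine, 17.5 to 39.0 TPM in colon and 7.44 to 13.7 TPM in lung. Small intestine and colon overlapped for Nr4a2, lung lay below both, and the other 4 tissues read at most 3.96 TPM.

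Egr1 was high in the gut and stood in lung near its levels in blood and in most of skin. It read 788, 448, 643 and 380 TPM in small intestine, 596, 762 and 909 TPM in colon and 56.1, 38.1 and 45.7 TPM in lung. Skin read 46.3, 70.4 and 346 TPM, with 1 library far above the other 2. Blood read 40.4, 62.0, 61.2 and 1.55 TPM, so 1 blood library lay with spleen, which read 0.73, 3.53, 1.11 and 0.41 TPM. Bone marrow read 0.78, 1.20 and 0.83 TPM.

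Egr2 was the other gene for which every small intestine library lay above all 20 libraries of the other tissues. It read 191, 175, 233 and 182 TPM in small intestine, 60.8, 61.5 and 74.4 TPM in colon and 5.87, 7.36 and 22.8 TPM in skin. Lung read 5.52, 0.98 and 7.40 TPM, blood 2.86, 5.63, 8.50 and 1.33 TPM and spleen 2.09, 4.27, 5.13 and 1.26 TPM. Colon lay below small intestine and above skin without overlap, skin, lung, blood and spleen each overlapped with the next in the order of means, every skin library lay above every spleen library, and bone marrow read at most 0.39 TPM. Of all 9806 genes tested, 4.47% lay in small intestine above every other library, as Rcan1 and Egr2 did. Egr3 was the least abundant EGR gene, at 7.16 to 23.8 TPM in small intestine, 4.23 to 11.9 TPM in colon, 3.30 to 10.7 TPM in lung and 0.32 to 4.55 TPM in skin. Each tissue overlapped with the next for Egr3, and spleen, bone marrow and blood read at most 1.43 TPM.

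**Figure D1:**
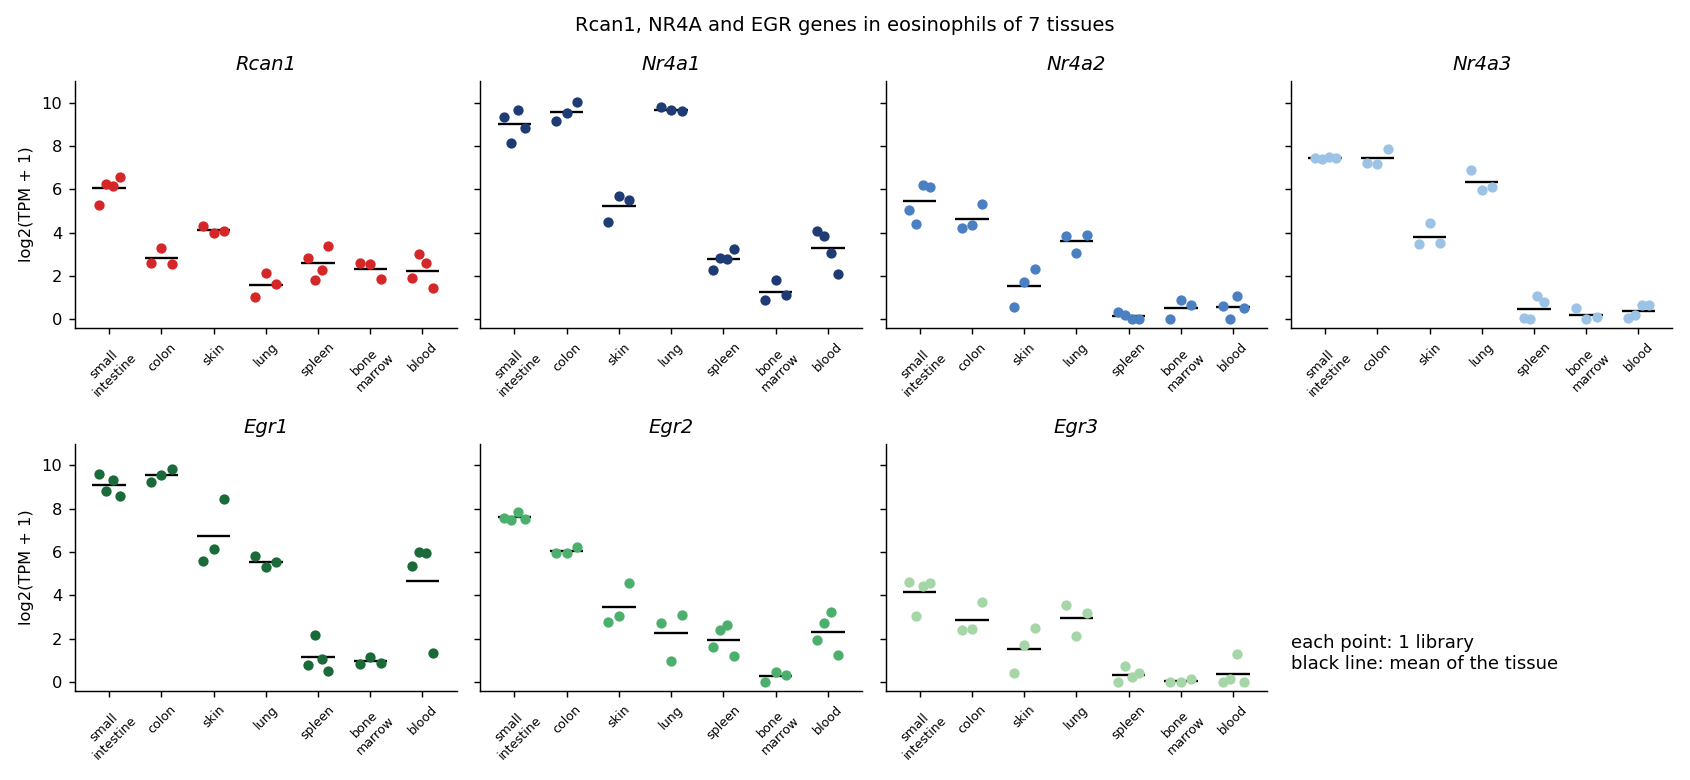
Each panel shows 1 gene, with log2(TPM + 1) on the vertical axis, 7 tissues on the horizontal axis, a point per library and a line at the tissue mean. Rcan1 stands high in small intestine and skin, Nr4a1 and Nr4a3 stand high in small intestine, colon and lung, and Egr1 and Egr2 stand high in small intestine and colon.

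Differences between tissues other than small intestine were tested with limma on log2(TPM + 1), with all 24 tissue libraries in 1 fit. P-values were adjusted by Benjamini-Hochberg over 9806 genes, and a gene was called at an adjusted p under 0.05. Changes are given on this log2 scale after the change of the median gene is taken off, with the standard error of the fit, and they understate the change of genes near 0. The test itself is of the change before the median was taken off. The median gene moved by -0.43 in lung against blood, 0.17 in skin, 0.11 in spleen, 0.10 in colon and 0.06 in bone marrow. The 5 comparisons against blood share its 4 libraries.

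In colon against blood, 6 of the 7 genes rose, and 19.9% of all genes rose in that comparison. Nr4a3 averaged 176 ± 50.4 TPM in colon and 0.335 ± 0.274 TPM in blood (SD, n = 3 and 4), a change of 6.94 ± 0.34 (adjusted p = 1.14e-14). Nr4a1 averaged 776 ± 236 TPM in colon and 9.98 ± 5.73 TPM in blood, a change of 6.19 ± 0.39 (adjusted p = 2.44e-12). Egr1 changed by 4.78 ± 0.73 (adjusted p = 9.39e-06), and Nr4a2, Egr2 and Egr3 changed by 3.98, 3.66 and 2.38. The exception was Rcan1, which averaged 6.18 ± 2.14 TPM in colon and 4.12 ± 2.38 TPM in blood, a change of 0.47 ± 0.43 (adjusted p = 0.332). The 6 calls were kept in every alternative that was run.

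In lung against blood all 3 NR4A genes and 1 of the 3 EGR genes were called. Nr4a1 averaged 818 ± 55.5 TPM in lung and 9.98 ± 5.73 TPM in blood, a change of 6.83 ± 0.39 (adjusted p = 2.23e-12). Nr4a3 rose by 6.35 ± 0.34, Nr4a2 by 3.48 ± 0.46 and Egr3 by 3.01 ± 0.50, so 4 of the 7 genes rose where 8.99% of all genes did. Egr1 averaged 46.6 ± 9.03 TPM in lung and 41.3 ± 28.3 TPM in blood, a change of 1.32 ± 0.73 (adjusted p = 0.363). Egr2 averaged 4.63 ± 3.30 TPM in lung and 4.58 ± 3.16 TPM in blood (adjusted p = 0.976). Rcan1 averaged 2.14 ± 1.16 TPM in lung and 4.12 ± 2.38 TPM in blood, a change of -0.22 ± 0.43 (adjusted p = 0.246). Before the median is taken off, the Egr1 change was 0.89, and -0.21 without blood library 4. The Egr2 change was -0.033 with all libraries, 0.60 without lung library 2, and 0.11 and 0.29 without blood libraries 2 and 3. Neither gene was called in any alternative run.

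Skin against blood was the comparison in which Rcan1 rose. It averaged 16.4 ± 2.15 TPM in skin and 4.12 ± 2.38 TPM in blood, a change of 1.71 ± 0.43 (adjusted p = 0.00101), and all 3 skin libraries lay above the 4 blood libraries. Nr4a3 rose by 3.24 ± 0.34, Nr4a1 by 1.79 ± 0.39 and Egr1 by 1.89 ± 0.73, so 4 of the 7 genes rose where 22.9% of all genes did. The Egr1 call (adjusted p = 0.0296) was lost without blood library 4 (0.136) or skin library 4 (0.238). Egr2, Egr3 and Nr4a2 missed the threshold (adjusted p = 0.0643, 0.0674 and 0.0972). Egr2 and Egr3 passed it without blood library 3 (0.0249 and 0.0283), and all 3 passed it without skin library 1 (0.0386, 0.0133 and 0.0240), which makes 7 of 7.

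In spleen against blood 1 gene fell, where 0.235% of all genes did. Egr1 averaged 1.45 ± 1.42 TPM in spleen and 41.3 ± 28.3 TPM in blood, a change of -3.64 ± 0.68 (adjusted p = 0.00574), although 1 blood library lay inside the spleen range. With spleen and blood alone in the fit, the call was lost (adjusted p = 0.337). In bone marrow against blood 3 genes fell, where 15.3% of all genes did. Egr1 averaged 0.937 ± 0.229 TPM in bone marrow, a change of -3.78 ± 0.73 against blood (adjusted p = 0.000267). Nr4a1 changed by -2.05 ± 0.39 (adjusted p = 0.000278) and Egr2 by -2.08 ± 0.50 (adjusted p = 0.00237). Rcan1 averaged 4.16 ± 1.3 TPM in bone marrow and 4.12 ± 2.38 TPM in blood, and was not called in either comparison.

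Other early response genes differed in direction among themselves. Of 38 measured from a list of 42, which holds AP-1, KLF, DUSP and NF-kB-induced genes among others, 31 rose and 2 fell in colon against blood, with a median change of 1.86. In lung against blood 21 rose and 6 fell, with a median of 1.497, and in skin against blood 16 rose and 9 fell, with a median of 0.46. Atf3, a stress-induced bZIP factor gene, averaged 244 TPM in colon, 33.0 TPM in skin and 27.1 TPM in lung, against 1.02 TPM in blood, and rose in each. Junb averaged 4545 TPM in colon and 837 TPM in blood and rose, while Dusp1, at 4433 TPM in colon and 3342 TPM in blood, was not called there. Named after its values were seen, Fos, an AP-1 subunit gene, averaged 152 TPM in lung and 638 TPM in blood and fell by 1.52 on the log2 scale, while Nfkbiz, an NF-kB cofactor, averaged 499 TPM in lung and 4.29 TPM in blood and rose by 7.11. In colon, 2 of the 38 had a larger change than Nr4a1 and 32 of the 38 a larger change than Rcan1. In bone marrow against blood 25 of the list fell and 2 rose, and in spleen against blood 9 fell and limma called none higher (1 higher at an unadjusted p under 0.05). The falls in spleen came to 1 with only those 2 tissues in the fit, and to 5 without blood library 1, 2 or 3 or spleen library 3 or 4.

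**Figure D2:**
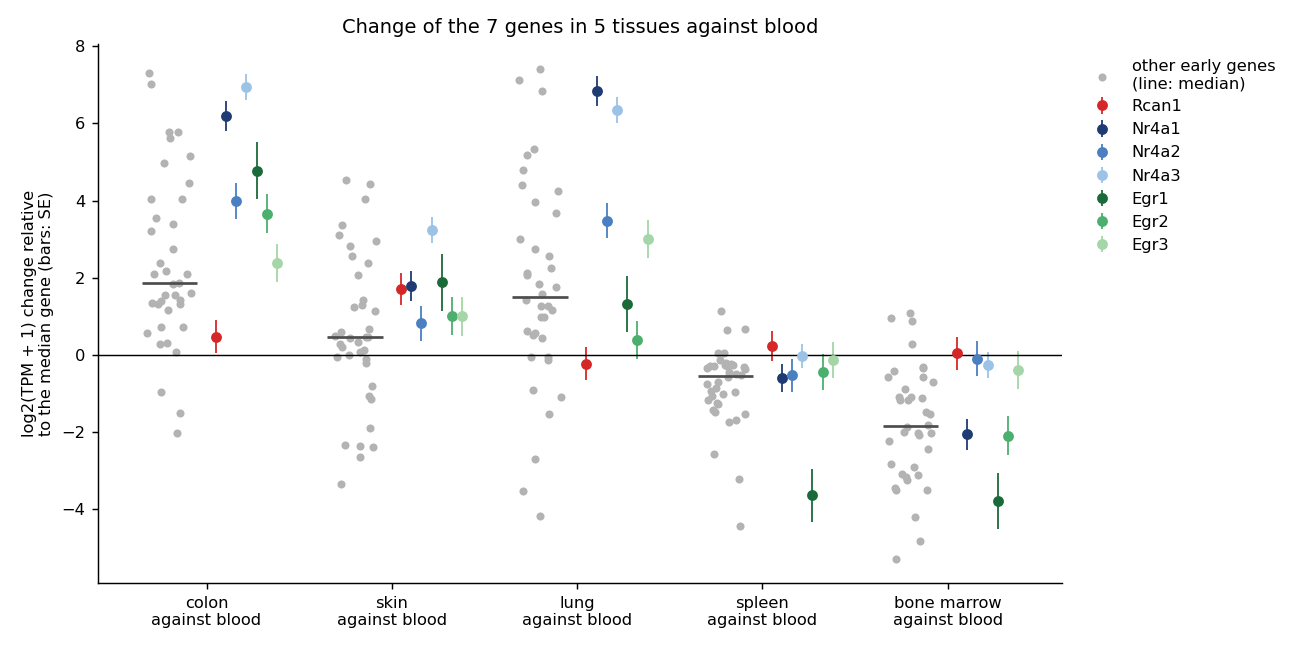
The change against blood in 5 tissues is plotted on the log2(TPM + 1) scale relative to the median gene, with bars for the standard error, colours for the 7 genes and grey points for 38 other early response genes. Nr4a1 and Nr4a3 stand above 6 in colon and lung, while Rcan1 stays between -0.22 and 0.47 there and reaches 1.71 in skin.

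The 3 barrier tissues outside the small intestine were also set against each other. In colon against lung, Egr1 averaged 756 ± 157 TPM in colon and 46.6 ± 9.03 TPM in lung (SD, n = 3 each), a change of 3.43 ± 0.78 (adjusted p = 0.000302). Egr2 averaged 65.6 ± 7.67 TPM in colon and 4.63 ± 3.30 TPM in lung, a change of 3.24 ± 0.53 (adjusted p = 5.49e-06). Nr4a1 averaged 776 ± 236 TPM in colon and 818 ± 55.5 TPM in lung and was not called (adjusted p = 0.857). Nr4a3 (0.56 ± 0.36, adjusted p = 0.0169) and Rcan1 (0.66 ± 0.45, adjusted p = 0.0361) made it 4 of 7 higher, where 31.9% of all genes were.

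The Nr4a3 and Rcan1 calls in colon against lung were lost in several alternatives. Nr4a3 lost its call without lung library 2 (adjusted p = 0.0760) or 3 (0.0642) or colon library 4 (0.0948). Rcan1 lost it without lung library 1 (0.148) or 3 (0.0683) or colon library 1 (0.0525) or 2 (0.139). Both lost it under median-ratio scaling of the libraries (0.214 for Nr4a3 and 0.170 for Rcan1). The median gene moved by 0.56 in colon against lung, -0.04 in colon against skin and -0.56 in lung against skin.

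In colon against skin, 5 of the 7 genes rose, where 9.33% of all genes did, and 1 fell, where 8.90% did. Nr4a1 averaged 776 ± 236 TPM in colon and 38.8 ± 15.3 TPM in skin, a change of 4.37 ± 0.42 (adjusted p = 4.15e-08). Nr4a3 rose by 3.67 ± 0.36, Nr4a2 by 3.13 ± 0.49, Egr1 by 2.86 ± 0.78 (adjusted p = 0.0122) and Egr2 by 2.61 ± 0.53. Rcan1 moved the other way, with 6.18 ± 2.14 TPM in colon and 16.4 ± 2.15 TPM in skin, and its 3 colon libraries lay below the 3 skin libraries. Its change was -1.27 ± 0.45 (adjusted p = 0.0464), and it lost the call without any 1 of the skin libraries (0.125, 0.0759 and 0.0826 for numbers 1, 2 and 4) or without colon library 1 (0.128) or 4 (0.135). The call was also lost with pseudocount 0.1 (0.0817), median-ratio (0.0673) or quantile scaling (0.0600), or with only the 2 tissues in the fit (0.0599). It was kept in 5 of 15 alternatives. Egr1 lost its call without skin library 1 (0.0793) or 2 (0.0551), and Egr3 gained one without skin library 4 (0.0309).

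In lung against skin Nr4a1 and Rcan1 were called in opposite directions. Nr4a1 averaged 818 ± 55.5 TPM in lung and 38.8 ± 15.3 TPM in skin, a change of 5.01 ± 0.42 (adjusted p = 1.12e-08). Rcan1 averaged 2.14 ± 1.16 TPM in lung and 16.4 ± 2.15 TPM in skin, a change of -1.97 ± 0.45 (adjusted p = 8.51e-05), and was lower in each alternative run. Nr4a3 (3.08 ± 0.36), Nr4a2 (2.63 ± 0.49) and Egr3 (1.98 ± 0.53, adjusted p = 0.0342) made it 4 of 7 higher, where 8.03% of all genes were, beside the fall of Rcan1, where 34.5% of all genes fell. The Egr3 call was lost without lung library 1 (0.141) or 3 (0.0942) or skin library 1 (0.236) or 2 (0.0529). Egr2, with 4.63 ± 3.30 TPM in lung and 12.0 ± 9.38 TPM in skin, was called lower without lung library 3 (0.0287) or skin library 1 (0.0392).

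Within single libraries, the ratio of Nr4a1 to Egr1 TPM was 15.7 to 21.0 in lung, against 0.943 to 1.13 in colon, 0.629 to 1.24 in small intestine and 0.129 to 0.717 in skin. The ratio in lung thus lay above every colon, small intestine and skin library. The ratio of Nr4a1 to Rcan1 TPM was 240 to 855 in lung, 85.2 to 214 in colon, 3.81 to 17.0 in small intestine and 1.15 to 3.47 in skin, with no overlap between these 4 tissues. In small intestine and colon Nr4a1 and Egr1 thus stood at similar levels, while Rcan1 was high beside Nr4a1 only in small intestine of the 3 tissues in which Nr4a1 was abundant.

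**Figure D3:**
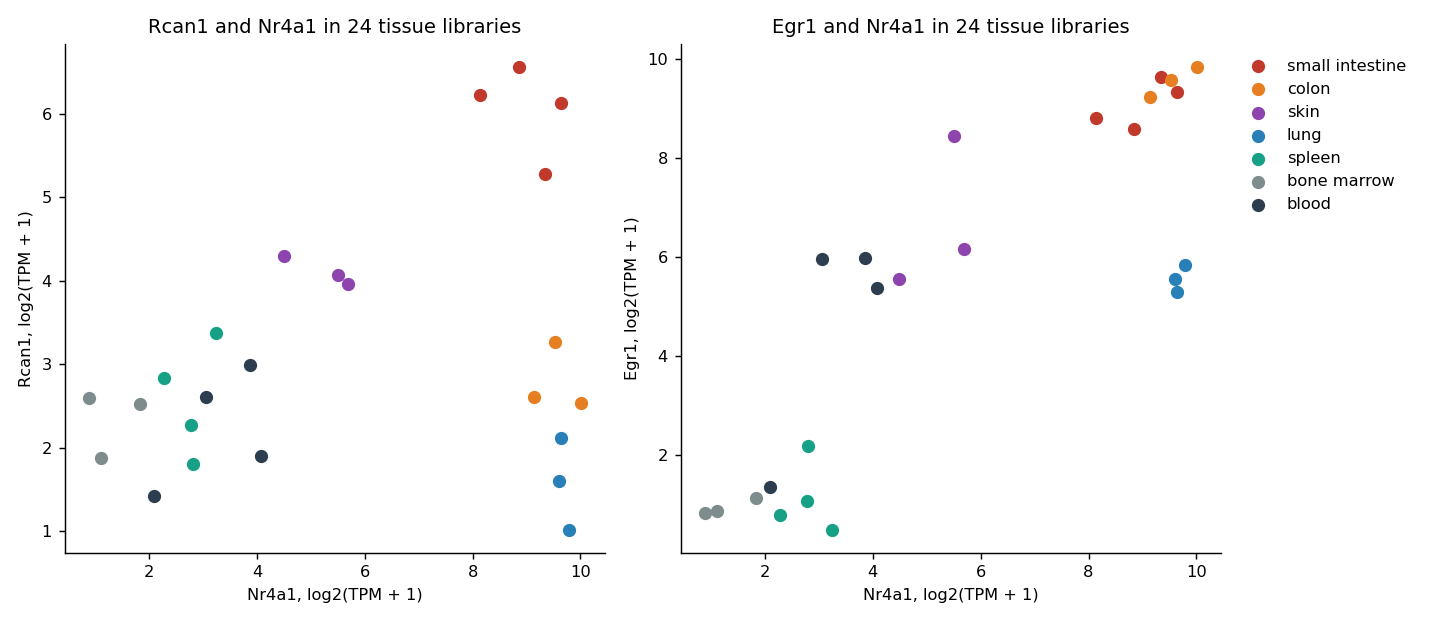
Each point is 1 of 24 tissue libraries, with Nr4a1 on the horizontal axis and Rcan1 (left) or Egr1 (right) on the vertical axis, all as log2(TPM + 1). Lung and colon libraries stand at the right edge with low Rcan1 in the left panel, and in the right panel lung libraries stand below colon and small intestine libraries at similar Nr4a1.

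Over the 24 tissue libraries, Pearson's r of log2(TPM + 1) between Rcan1 and the other 6 genes ranged between 0.343 with Nr4a1 and 0.728 with Egr2. Among the other 6 it ranged between 0.738 and 0.959, with Nr4a1 and Nr4a3 at the top. These values describe libraries that fall into tissues, and points of 1 tissue are not independent. Of 7362 genes with a mean of at least 10 TPM in some tissue, those most like Rcan1 were Clec4a4, a C-type lectin (r = 0.904, with 487 TPM in small intestine and at most 4.89 TPM in any other tissue on average), Srsf10, a splicing factor (0.884), and Slc38a1, an amino acid transporter (0.876). For Nr4a1 they were Ccnl1 (0.974), Csrnp1 (0.972) and Plk3 (0.968), and for Nr4a3 they were Il1a (0.987), Ccrl2 (0.985) and Smim3 (0.982). Pim3, Ppp1r15a and Rgs1 were most like Egr1 (0.936, 0.927 and 0.918), and Mmp25, Rgs1 and Mafk most like Egr2 (0.947, 0.940 and 0.939). Plk3, Tnfaip2 and Ccrl2 led for Nr4a2 (0.959, 0.955 and 0.945) and Plk3, Myo1c and Nampt for Egr3 (0.938, 0.927 and 0.926).

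Small intestine was set against the unweighted mean of the 6 other tissues, with no test. Rcan1 averaged 68.6 ± 22.9 TPM in small intestine (SD, n = 4) and 6.41 TPM over the other tissue means, a 10.7-fold difference. Egr2 averaged 195 ± 25.9 TPM in small intestine and 15.0 TPM over the others, 12.98-fold. Nr4a1 averaged 547 ± 224 TPM in small intestine and 275 TPM over the others, 1.99-fold, with lung and colon libraries in the same range. On the log2(TPM + 1) scale, relative to the median gene, which moved by 0.11, the 7 genes stood 2.71 (Egr3) to 4.78 (Egr2) above the others, and Rcan1 3.33 ± 0.31. In this comparison 24.7% of all genes were higher. All 7 genes lay in small intestine above every library of skin, spleen, bone marrow and blood, 5 above every lung library and 2, Rcan1 and Egr2, above every colon library. The share of all genes that lay so above each single tissue was not counted, so these counts cannot be weighed.

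The sorted small intestine eosinophils show the same genes within 1 tissue. Rcan1 read 113, 95.1, 141, 90.7 and 174 TPM in the 5 Nmur1-positive libraries, and 6.09 to 27.2 TPM with a median of 11.4 TPM in the 6 Nmur1-negative libraries. The groups did not overlap. The means were 123 ± 34.7 TPM in Nmur1-positive and 13.2 ± 7.63 TPM in Nmur1-negative cells, a 9.30-fold difference, or 3.02 ± 0.31 on the log2(TPM + 1) scale relative to the median gene, which moved by 0.22. Of 7982 genes, 1 had a larger change, Defa17, a Paneth cell defensin, which averaged 173 ± 284 TPM in Nmur1-positive and 15.9 ± 17.8 TPM in Nmur1-negative libraries.

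Of the NR4A genes, Nr4a2 showed the widest difference. It read 143, 42.2, 57.0, 80.3 and 94.0 TPM in Nmur1-positive libraries, and 7.11 to 29.0 TPM with a median of 11.5 TPM in Nmur1-negative libraries, 5.84-fold between the means. Nr4a1 read 1515, 753, 1230, 1278 and 2254 TPM in Nmur1-positive libraries, and 305 to 994 TPM with a median of 700 TPM in Nmur1-negative libraries, 2.07-fold between the means. Nr4a3 read 356, 135, 214, 230 and 580 TPM in Nmur1-positive libraries, and 84.4 to 228 TPM with a median of 161 TPM in Nmur1-negative libraries, 1.96-fold. The groups overlapped for Nr4a1 and Nr4a3 and not for Nr4a2. The changes were 2.30 ± 0.36 for Nr4a2, 0.87 ± 0.29 for Nr4a1 and 0.67 ± 0.32 for Nr4a3.

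Of the EGR genes, Egr2 did not overlap between the groups. It read 501, 356, 553, 446 and 1093 TPM in Nmur1-positive libraries, and 58.3 to 178 TPM with a median of 121 TPM in Nmur1-negative libraries, 4.99-fold between the means. Egr1, the most abundant of the 7, read 1721, 936, 1586, 1366 and 2577 TPM in Nmur1-positive libraries, and 344 to 1169 TPM with a median of 711 TPM in Nmur1-negative libraries, 2.20-fold. Egr3 read 31.6, 15.9, 27.8, 43.4 and 70.1 TPM in Nmur1-positive libraries, and 6.86 to 16.7 TPM with a median of 13.2 TPM in Nmur1-negative libraries, 2.97-fold. Egr1 and Egr3 overlapped in a single Nmur1-positive library, number 3. The changes were 2.12 ± 0.31 for Egr2, 1.18 ± 0.33 for Egr3 and 0.9998 ± 0.31 for Egr1. Of all 7982 genes, 5.65% lay above in every Nmur1-positive library, as Rcan1, Nr4a2 and Egr2 did, and 9.18% were called higher.

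Libraries 3, 4, 5 and 8 exist in both sorts, and all 7 genes were higher in the Nmur1-positive library of each of these 4 pairs. The share of all genes that were higher in each of the 4 pairs was not counted, so this count cannot be weighed. With the library number as a block, 868 of all 7982 genes were called higher. The fold within pairs was 9.07 to 14.2 for Rcan1, 3.35 to 6.91 for Egr2 and 1.96 to 11.3 for Nr4a2. It was 1.45 to 2.84 for Nr4a1, 1.45 to 2.61 for Nr4a3, 1.79 to 3.34 for Egr1 and 1.6 to 5.85 for Egr3. Rcan1 was thus higher by a like factor in each pair, while Nr4a2 varied most. The ratio of Nr4a1 to Rcan1 TPM was 7.92 to 14.1 within Nmur1-positive libraries and 29.1 to 90.3 within Nmur1-negative libraries, while the ratio of Nr4a1 to Egr1 overlapped, at 0.776 to 0.936 within Nmur1-positive and 0.819 to 1.10 within Nmur1-negative libraries.

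**Figure D4:**
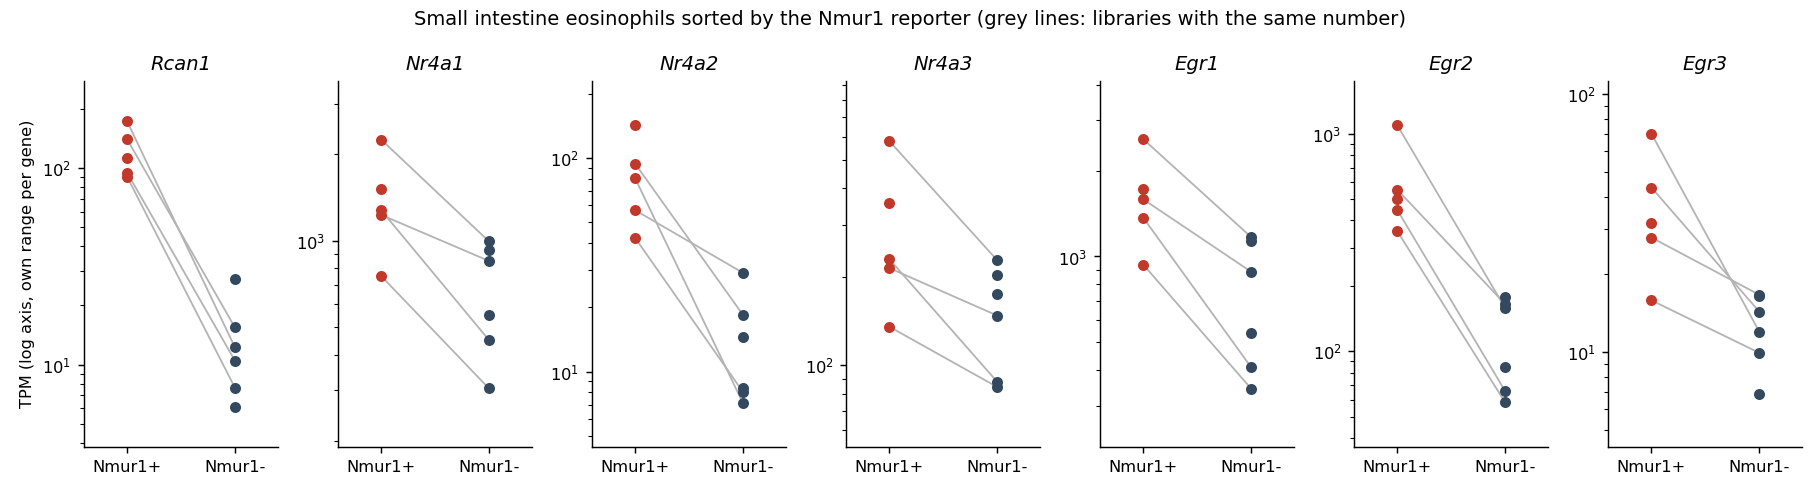
Each panel shows 1 gene with TPM on a log axis of its own range, Nmur1-positive libraries on the left and Nmur1-negative libraries on the right, a point per library and grey lines between libraries of the same number. All lines slope down to the right, and the groups stand apart for Rcan1, Nr4a2 and Egr2.

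Other early response genes went both ways between the sorts. Of the 38 measured, 5 were called higher by limma, Fos, Atf3, Plk3, Fosl2 and Klf6, with changes between 0.62 and 1.02, and 10 were called lower. Of all 7982 genes, 733 were called higher and 419 lower, which is also the background of the other lists in the sort. With the library number as a block 11 were called higher and 11 lower. The higher ones came to 3 without Nmur1-positive library 4 or 8, without Nmur1-negative library 5, or with the number-matched libraries alone. Of the genes of this list with the highest tissue levels, Nfkbia, which encodes an NF-kB inhibitor, averaged 551 ± 150 TPM in Nmur1-positive and 4505 ± 1376 TPM in Nmur1-negative libraries, a change of -3.24 ± 0.21. Nfkbiz averaged 200 TPM in Nmur1-positive and 749 TPM in Nmur1-negative libraries and fell too, while the AP-1 subunit gene Junb was not called. The phosphatase gene Dusp1 was not called either, but was called higher with the library number as a block (0.38 ± 0.15, adjusted p = 0.0170). Named after their values were seen, Myc averaged 4.37 TPM in Nmur1-positive and 65.7 TPM in Nmur1-negative libraries and Dusp2 7.51 TPM in Nmur1-positive and 79.4 TPM in Nmur1-negative libraries, the largest falls of the list.

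The median change of the 38 genes was -0.14, that of all genes is 0 by construction, and that of the 7 genes was 1.18. None of the 38 had a larger change than Rcan1, Nr4a2, Egr2 or Egr3, against 1 for Egr1 (Fos), 3 for Nr4a1 and 5 for Nr4a3. With the library number as a block, none of the 38 had a larger change than Rcan1 (3.09 ± 0.22), Egr2 (2.23 ± 0.17), Nr4a2 (1.98 ± 0.33), Egr3 or Egr1, against 1 for Nr4a1 and 2 for Nr4a3. Rcan1, Nr4a2, Egr2 and Egr3 thus stood above all 38 by both fits, while Nr4a1 and Nr4a3 stood among Fos, Atf3 and Plk3.

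**Figure D5:**
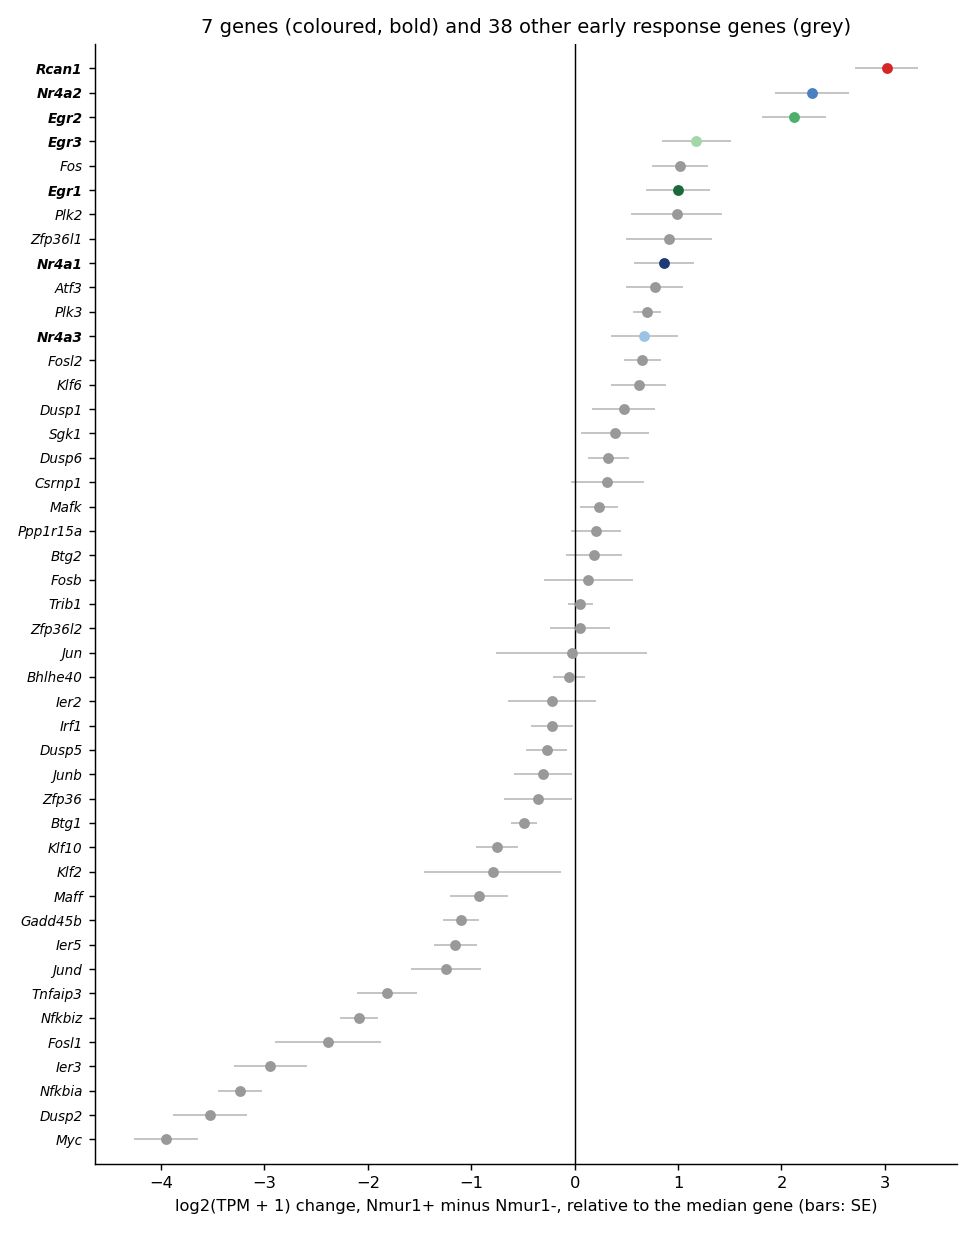
The change between Nmur1-positive and Nmur1-negative libraries is plotted on the log2(TPM + 1) scale relative to the median gene, with bars for the standard error, for the 7 genes (coloured, bold) and 38 other early response genes (grey). Rcan1 stands at 3.02, Nr4a2 at 2.30 and Egr2 at 2.12, Egr3 at 1.18 stands above all 38, Egr1, Nr4a1 and Nr4a3 stand between 0.67 and 0.9998 near Fos and Atf3, and Myc, Dusp2 and Nfkbia stand below -3.

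The genes of the calcium pathway itself were mostly not called between the sorts. Of 31 measured from a list of 39 calcium entry, calcineurin and NFAT genes, 1 was called higher and 1 lower (3 lower without Nmur1-negative library 5), and the median change was -0.18. The higher one, named after its value was seen, was Itpr2, a calcium release channel gene, with 61.9 ± 15.3 TPM in Nmur1-positive and 34.2 ± 7.10 TPM in Nmur1-negative libraries. The lower one was Nfat5, with 8.38 TPM in Nmur1-positive and 18.3 TPM in Nmur1-negative libraries. Calm2 and the calcium pump gene Atp2b1, both among the most abundant of the list, were not called.

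Against blood, 33 genes of the calcium list were measured, and more fell than rose in colon and skin. Of all 9806 genes, 1948 rose and 1178 fell in colon, 2249 rose and 1390 fell in skin, and 882 rose and 2618 fell in lung. In lung falls thus outnumbered rises among all genes too. These counts are also the background of the other lists against blood. In colon 5 rose and 8 fell (5 fell without colon library 2). The largest falls there were in Plcb3, which encodes a phospholipase C, at 5.89 TPM in colon and 22.2 TPM in blood, and in Orai1, which encodes a store-operated calcium channel, at 10.5 TPM in colon and 31.1 TPM in blood. In skin 5 rose and 13 fell. In lung 5 rose and 12 fell, but 6 rose and 6 fell with median-ratio scaling, and 2 rose without blood library 2 or lung library 2 and 3 without lung library 3. In spleen limma called none in either direction, with 1 of the 33 higher at an unadjusted p under 0.05.

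Cytokine and other genes inducible through NFAT in lymphocytes moved in both directions in the sort. Of 14 listed, 4 were measured in the sort, where 1 rose and 3 fell. Il4, the type 2 cytokine gene, averaged 239 TPM in Nmur1-positive and 387 TPM in Nmur1-negative libraries, Ptgs2, the inducible cyclooxygenase gene, 85.5 TPM in Nmur1-positive and 183 TPM in Nmur1-negative libraries, and Tnf 28.5 TPM in Nmur1-positive and 156 TPM in Nmur1-negative libraries. Nfil3, a bZIP factor gene, rose, with 51.1 TPM in Nmur1-positive and 27.2 TPM in Nmur1-negative libraries. The falls came to 1 without Nmur1-positive library 3 or Nmur1-negative library 8. Against blood 6 were measured, and 3 rose in colon, 5 in skin and 3 in lung, with none lower by limma. Tnf averaged 295 TPM in colon, 233 TPM in skin and 143 TPM in lung, against 2.41 TPM in blood, and Ptgs2 averaged 109 TPM in colon, 33.3 TPM in skin and 107 TPM in lung, against 0.292 TPM in blood. Both rose in all 3 tissues, where the Rcan1 call against blood was in skin.

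Of 15 measured CREB regulators and cAMP-induced genes, 3 rose and 1 fell in the sort (1 and 1 with median-ratio scaling). Rgs1, a regulator of G protein signalling, averaged 6245 ± 1231 TPM in Nmur1-positive and 1893 ± 328 TPM in Nmur1-negative libraries, a rise of 1.498 ± 0.14. Rgs2, of the same family, averaged 221 TPM in Nmur1-positive and 151 TPM in Nmur1-negative libraries and rose by 0.34. Icam1, an adhesion molecule gene also induced by NF-kB, fell, with 179 TPM in Nmur1-positive and 669 TPM in Nmur1-negative libraries. Against blood, Crem, which encodes activators and repressors that bind cAMP response elements, averaged 205 TPM in colon, 225 TPM in skin and 224 TPM in lung, against 4.58 TPM in blood, and rose in each. In colon 6 of the 15 rose and 2 fell, in skin 7 rose and 3 fell, and in lung 5 rose and 4 fell (2 without lung library 1 or 2).

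Among 12 measured EGR partners and serum response regulators, Nab1, a corepressor of EGR proteins, averaged 49.6 TPM in colon, 128 TPM in skin and 108 TPM in lung, against 7.05 TPM in blood, and rose in each. Mrtfa, a coactivator of serum response factor, fell in each, with 29.9 TPM in colon, 58.3 TPM in skin and 9.54 TPM in lung, against 124 TPM in blood. Id3, an inhibitor of helix-loop-helix factors that EGR proteins induce in T cells, averaged 7.83 TPM in colon and 0.355 TPM in blood and rose. In colon 2 of the 12 rose and 3 fell, in skin 5 rose and 3 fell, and in lung 3 rose and 4 fell. In the sort 11 were measured and limma called none higher, with 1 higher at an unadjusted p under 0.05. Id2 was the 1 called lower, with 73.7 TPM in Nmur1-positive and 139 TPM in Nmur1-negative libraries.

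Heat shock genes, which tissue processing can induce, moved with tissue. The 10 measured of 11 listed summed to 3462 to 9815 TPM in small intestine, 6125 to 10518 TPM in colon, 12571 to 22006 TPM in skin and 1539 to 1739 TPM in lung, against 1003 to 1403 TPM in blood. All 10 rose in colon and in skin against blood, and in lung 1 rose and 2 fell. Hspa1a, an inducible chaperone gene, averaged 146 TPM in colon, 237 TPM in skin and 0.273 TPM in lung, against 0.17 TPM in blood. Hspa8, the most abundant of the list, averaged 3063 TPM in colon, 7612 TPM in skin and 195 TPM in lung, against 503 TPM in blood. The lung sums all lay above the blood sums, although Hspa1a in lung was close to blood, and the skin sums were the highest of the 7 tissues. Nr4a1 read 774 to 880 TPM in lung and 21.5 to 50.5 TPM in skin, and Nr4a2, Nr4a3 and Egr3 were also higher on average in lung. The other genes were higher on average in skin. Rcan1 averaged 2.14 TPM in lung and 16.4 TPM in skin. Egr1 averaged 46.6 TPM in lung and 154 TPM in skin, and Egr2 4.63 TPM in lung and 12.0 TPM in skin, both not called. In the sort the sums were 4689 to 28480 TPM in Nmur1-positive and 4474 to 25259 TPM in Nmur1-negative libraries. There limma called none of the 10 in either direction, with none at an unadjusted p under 0.05, and with the library number as a block 3 were called lower. Their part in the levels of the 7 genes was not tested.

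Genes listed as markers of other cells also moved with some groups, and whether eosinophils themselves expressed them was not tested. In the sort, 5 of 13 macrophage and monocyte markers were measured and summed to 337 to 592 TPM in Nmur1-positive and 144 to 227 TPM in Nmur1-negative libraries, and of these Lyz2, a lysozyme gene, averaged 281 TPM in Nmur1-positive and 67.0 TPM in Nmur1-negative libraries. The 2 measured of 11 epithelial markers summed to 113 to 239 TPM in Nmur1-positive and 79.5 to 96.7 TPM in Nmur1-negative libraries. Pecam1, the 1 measured of 8 stroma and endothelium markers, read 155 to 235 TPM in Nmur1-positive and 78.0 to 145 TPM in Nmur1-negative libraries. These 3 sets stood apart between the sorts, as Rcan1, Nr4a2 and Egr2 did. Cd22, a B cell receptor regulator gene and 1 of the 2 measured of 10 B and plasma cell markers, was called higher too, with 60.9 to 98.4 TPM in Nmur1-positive and 13.2 to 53.8 TPM in Nmur1-negative libraries. With Jchain, the 2 markers summed to 82.1 to 441 TPM in Nmur1-positive and 32.1 to 418 TPM in Nmur1-negative libraries. Jchain itself averaged 97.3 TPM in Nmur1-positive and 92.4 TPM in Nmur1-negative libraries, so it did not differ as Cd22 did. The 5 measured of 11 neutrophil markers summed to 5818 to 9918 TPM in Nmur1-positive and 9320 to 12653 TPM in Nmur1-negative libraries. These sums came mostly from 1 gene, which averaged 7166 TPM in Nmur1-positive and 10874 TPM in Nmur1-negative libraries. None of 10 T cell markers was in either table. The part of such cells in the differences of the 7 genes between the sorts was not tested.

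In the tissues, the 3 measured B and plasma cell markers summed to 75.2 to 1005 TPM in small intestine and to at most 146 TPM in any other library, and of these Cd22 read 61.4 to 87.0 TPM in small intestine and at most 5.21 TPM in any other library. Macrophage and monocyte markers summed to 331 to 512 TPM in small intestine, 142 to 167 TPM in colon, 370 to 462 TPM in skin and 215 to 296 TPM in lung, against 139 to 274 TPM in blood, where C1qa and C1qb were at 0. Neutrophil markers summed to 5910 to 7724 TPM in small intestine, 11559 to 13852 TPM in colon, 4311 to 12315 TPM in skin and 65905 to 75126 TPM in lung, against 58526 to 65496 TPM in blood. In these tissues too the sums came mostly from the gene that made up most of them in the sort. That gene averaged 70436.5 TPM in lung and 61058.5 TPM in blood. S100a8 averaged 5.81 TPM in lung and 7.12 TPM in blood, and S100a9 141 TPM in lung and 20.8 TPM in blood. In colon the neutrophil genes S100a8, Ngp, Camp, Elane and Mpo were at 0 in all 3 libraries. Epithelial markers summed to 101 to 219 TPM in small intestine and 41.7 to 78.8 TPM in colon, against 51.9 to 63.6 TPM in blood. The 3 measured of 8 stroma and endothelium markers summed to 165 to 215 TPM in small intestine, 91.9 to 155 TPM in colon, 7.65 to 45.8 TPM in skin and 20.6 to 32.2 TPM in lung, against 34.4 to 53.4 TPM in blood. Small intestine thus lay above every other library for this set, as it did for Rcan1 and Egr2. Of the mast cell and basophil markers, Mcpt8, Cpa3, Fcer1a and Ms4a2 were at 0 in small intestine, colon and lung. This set summed to 61.6 to 146 TPM in bone marrow and 3.65 to 11.75 TPM in blood. Macrophage and monocyte markers summed to 4424 to 4943 TPM in bone marrow and 337 to 884 TPM in spleen. Of 10 neutrophil markers, 9 rose and 1 fell in bone marrow against blood, where 1896 of all genes rose and 1497 fell. S100a8 averaged 16464 TPM in bone marrow and 825 TPM in spleen. The part of such cells in the tissue differences of the 7 genes was not tested.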

How the data were processed

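Bulk Smart-seq2 RNA-seq was read from 24 tissue libraries and 11 libraries of the reporter sort. The authors deposited a filtered TPM table for each set. Per the submitters' processing notes the tools were cutadapt 2.10, STAR 2.7.5c and RSEM 1.3.3 on mm10, with the annotation and the authors' filter not given in the sources used. Each TPM column summed to 796048 to 890768 in the tissue table and 799585 to 863816 in the sort table, and depth is unknown. Groups came from the labels. Genes with at least 1 TPM in 3 tissue or 5 sort libraries were kept, 9806 and 7982 genes, and all 7 named genes passed. Values were tested as log2(TPM + 1), pseudocount 1, with limma 3.58.1 (trended empirical Bayes, R 4.3.3) and Benjamini-Hochberg adjustment over all genes kept, one fit per table, tested on simulated data. Summaries used Python 3.11.15, pandas 2.3.3, scipy 1.17.1 and matplotlib 3.10.9. Normalisation by the authors to a fixed sum means that 1 gene's rise lowers the share of the others. The 7 genes and all lists were chosen with earlier results of these data known. Besides the 7 genes, the text names the 3 genes most like each of them, and from each list the 3 with the highest mean TPM and the 2 with the largest called change in colon against blood; other names are said to be chosen later. One gene that this rule names is not reported here. In the sort, libraries of the same number deviated together (r of 0.164 to 0.225 in 4 of 4 pairs), so the number was also used as a block. Alternatives were pseudocounts of 0.1 and 10, another minimum TPM, median-ratio and quantile scaling, a robust fit, the replicate block, fits of the compared tissues alone and leaving out each library.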

Additional observations from a re-analysis of the deposited data

Results flagged for a closer look

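Of 35 groups of 4 to 6 libraries, 7 genes in 5 groups, 2 held a library far from the others, and chance gives about 1 in 20. Egr2 read 1092.5 TPM in Nmur1-positive library 8, where the other 4 Nmur1-positive libraries read 355.98 to 553.38 TPM. Egr3 read 1.43 TPM in blood library 3, where the other blood libraries read 0, 0 and 0.11 TPM.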

How the results depend on the processing

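For the 6 genes called in colon against blood and the 4 called in lung against blood, every alternative kept direction and call. The same held for Rcan1, Nr4a1 and Nr4a3 in skin against blood and for Rcan1 and Nr4a1 in lung against skin. Changes here are on the log2(TPM + 1) scale before the change of the median gene is taken off. The median change of the 7 genes in small intestine against the other tissues was 3.70, 4.66 with pseudocount 0.1 and 2.75 with pseudocount 10. In the sort it was 1.39, and between 1.13 and 1.65 when each library was left out. The members called in spleen against blood came to 0 with only those 2 tissues fitted, and in colon against lung to 2 with median-ratio and 2 with quantile scaling, 2 to 3 when each library was left out. In skin against blood 3 to 7 were called when each library was left out.

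Changes that turned sign were all uncalled. Rcan1 in bone marrow against blood was -0.43 with quantile scaling and -0.17 to 0.36 when each library was left out, and in lung against blood 0.040 with quantile scaling. Nr4a2 in bone marrow against blood was 0.088 with the replicate block and -0.21 to 0.23 when each library was left out. Nr4a3 in spleen against blood was -0.046 with pseudocount 0.1, -0.11 with quantile scaling and -0.11 to 0.25 when each library was left out. Egr3 in spleen against blood was 0.35 with pseudocount 0.1 and -0.15 to 0.29 when each library was left out. Egr2 in lung against blood was 0.0040 with pseudocount 10, 0.29 with median-ratio and 0.60 with quantile scaling, and -0.44 to 0.60 when each library was left out. When each library was left out, Egr1 in lung against blood was -0.21 to 1.33, Egr3 in colon against lung -0.53 to 0.20 and Nr4a1 in colon against lung -0.34 to 0.092. The cause was not tested.

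Same-numbered tissue libraries did not deviate together (r over 0.1 in 0 of 62 pairs). With few libraries per tissue, this cannot settle whether they came from the same animals, which the labels do not say. With the replicate block Egr2 and Egr3 passed in skin against blood (adjusted p = 0.0290 and 0.0488) and Egr2 in lung against skin (0.0284), Rcan1 missed in colon against lung (0.0612) and colon against skin (0.0587), and no other call of the 7 genes changed. The Egr2 fall in bone marrow was lost with pseudocount 10 (0.0931), and Egr1 in skin against blood with pseudocount 0.1 (0.0508), quantile scaling (0.0713), a robust fit (0.0572) or 2 tissues (0.230).

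Genes called in spleen against blood numbered 107, against 22 with 2 tissues, 69 without blood library 1 and 69 without spleen library 4, and in colon against skin 915 higher and 873 lower, against 536 and 495 with 2 tissues. Scaling moved the split of higher and lower genes. It was 882 and 2618 in lung against blood, 1532 and 1625 with median-ratio and 1211 and 1465 with quantile scaling. It was 3129 and 620 in colon against lung, 1774 and 1338 with median-ratio and 1265 and 1294 with quantile scaling. It was 787 and 3383 in lung against skin, 1660 and 1839 with median-ratio and 1537 and 1544 with quantile scaling. In the sort it was 733 and 419, 362 and 592 with median-ratio and 428 and 529 with quantile scaling. In skin against blood it was 2249 and 1390, 1770 and 1692 with median-ratio and 1616 and 1823 with quantile scaling. With quantile scaling it was 1456 and 1771 in colon against blood (1948 and 1178), 1735 and 2197 in bone marrow against blood (1896 and 1497), 1816 and 2137 in small intestine (2422 and 1577) and 58 and 31 in spleen against blood (84 and 23).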
